A study of Solanum lycopersicum with 21 samples.

Results

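The transcripts described here are those that were raised in tomato leaves by jasmonic acid (JA) and by ethylene (Et) but not by salicylic acid (SA). They are 75 of the 67795 probe sets of the tomato gene array. A probe set is the group of probes that measures one transcript, and its level is given as a log2 intensity, so that a difference of 1 is a doubling. The members were chosen on group means. Their JA mean and their Et mean were each at least 1 above the mean of the non-treated control (NTC) of experiment 1, with every JA and every Et array above every NTC array. Their SA mean was less than 0.5 above that NTC, and the higher of the JA and Et means was at least 5. Of 86 such probe sets, the 75 with a gene symbol or a description in the study's lists of changed transcripts were kept. The JA, Et and SA values of the members, and their NTC values of experiment 1, are therefore a description and were not tested.

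All plants were tomato cv. Rio Grande, sampled as leaves 24 h after treatment, and each array held RNA pooled from 10 plants. Experiment 1 compared mock-treated plants (NTC, distilled water), JA at 2.5 mM, SA at 2.5 mM, Et and the peptide BP178 at 125 μM. Experiment 2 compared its own mock-treated NTC with the peptide flg15 at 125 μM. There were 7 groups of 3 arrays. BP178 is a synthetic antimicrobial peptide, and flg15 is a short form of the bacterial flagellin epitope that plants perceive through a receptor kinase. Et was generated from ethephon at 1 mM with disodium hydrogen phosphate at 2.5 mM in a sealed chamber per the methods, whereas the labels call these plants sprayed. No enclosed control was described, so that, if a chamber was used, Et and enclosure cannot be told apart.

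JA and Et are hormones that plants make after wounding and after attack by necrotrophic pathogens, whereas SA is mostly tied to defense against biotrophs. In the JA pathway the hormone is sensed by the COI1 receptor, which removes JAZ repressors from MYC and other transcription factors. In the Et pathway, receptor signaling through EIN2 stabilizes EIN3-like factors, which switch on ERF transcription factors. The pathways meet at the EIN3-like and ERF factors, and their joint targets in Arabidopsis and tomato include basic, vacuolar pathogenesis-related (PR) proteins such as chitinases, glucanases and osmotins.

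The 21 arrays had medians between 2.63 and 2.85, and values ran from 0.956 to 13.85. The leaf mesophyll marker list, of which 3 of 17 symbols were matched, had array means of 9.15 to 9.61 after SA, 9.88 to 10.09 in the NTC of experiment 1 and between 9.88 and 10.66 over the groups other than SA. The glandular trichome list, with 2 of 11 symbols matched, had array means of 3.81 to 4.48 after JA against 2.40 to 2.61 in the NTC of experiment 1, 2.32 to 2.71 after Et and 3.27 to 3.91 in the NTC of experiment 2. Its 2 genes moved apart. MTS1 was 2.88 higher after JA and NDPS1 0.38 higher. NDPS1 had means of 2.75 and 4.55 in the first and second NTC, and MTS1 of 2.20 and 2.47. The root list (1 of 5 symbols) had array means between 1.54 and 2.09, and the fruit list (3 of 6) between 3.53 and 4.13. In the fruit list, EXP1 and PG2 were near the bottom of the scale, at 1.68 and 2.02 in the NTC of experiment 1. Psy1, at 8.33 there, differed by -1.62 after JA, -1.08 after Et and -1.17 after SA. The part of these cell types in the results was not tested. In whole leaves, fewer cells of a type and less RNA per cell cannot be told apart.

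Among the 75 members, the JA difference ran from 1.00 to 7.04 with a median of 1.72, and the Et difference from 1.02 to 6.53 with a median of 1.78. The SA difference ran from -1.82 to 0.49 with a median of 0.00. Both differences were 2 or more in 16 members. The JA and Et means were within 0.5 of each other in 37 members, JA exceeded Et by 1 or more in 10, and Et exceeded JA by 1 or more in 12. Every JA array was above every Et array in 16 members and every Et array above every JA array in 20, where 10.5% and 10.9% of all probe sets did so. The SD within a group of 3 arrays had a median of 0.25 over the members and was at most 1.45.

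**Figure D1:**
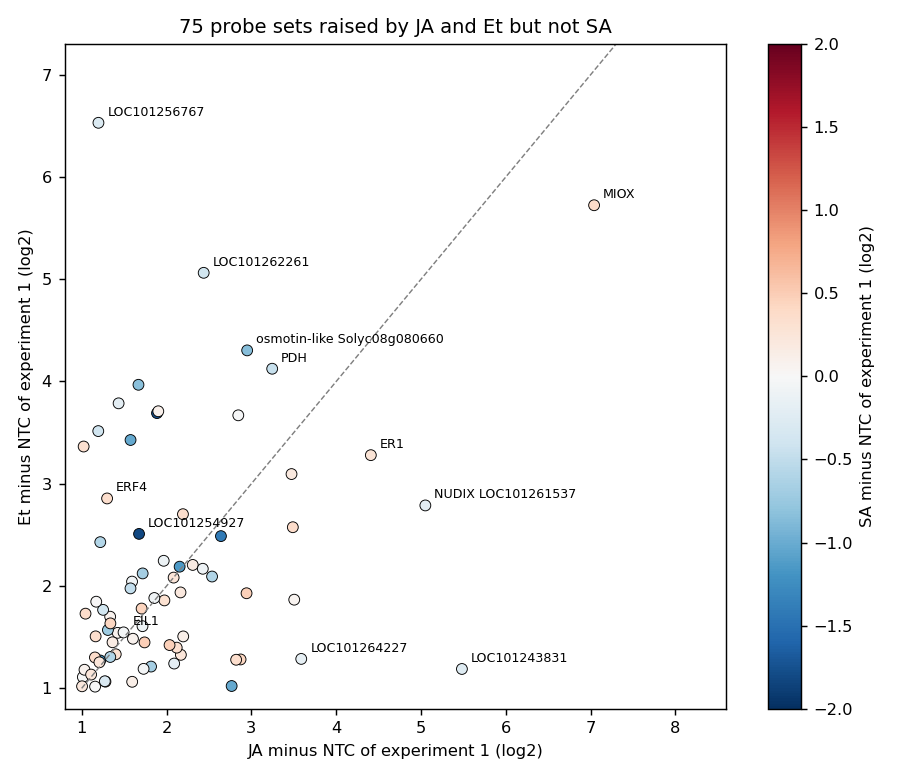
Each point is one of the 75 members, with its JA difference from the NTC of experiment 1 on the x axis and its Et difference on the y axis (log2), coloured by its SA difference. The dashed line marks equal differences. Most points sit below 3 on both axes, MIOX lies highest on the JA axis at 7.04, and LOC101256767 lies highest on the Et axis at 6.53.

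At the edges of the rule, the smaller of the JA and Et differences was 1.00 for LOC101261857, 1.01 for LOC101261005 and 1.02 for LOC101258862 inside, and 0.99 for LOC101260903, 0.99 for LOC101263094 and 0.97 for LOC101251130 outside. The SA difference was 0.49 for LOC101261818, 0.47 for LOC543993 and 0.47 for LOC101264331 inside, and 0.51 for LOC543870, 0.51 for LOC101257130 and 0.55 for LOC101268542 outside. The higher group mean was 5.07 for LOC101268417 inside and 4.96 for LOC101262309 outside. These neighbours differed by less than the usual SD within a group, and 45 of the 75 members kept their place whichever single array of NTC, SA, JA or Et was left out.

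The annotation of the members was uneven. A gene symbol was available for 72, all matched in RefSeq, and 70 of these were protein-coding genes. A description was available for 10, and 53 had only a locus number. The descriptions came from the study's lists of transcripts changed by the peptides and, in part, by SA, so that a described member is more likely to have changed after a peptide. Of the members, 10 were annotated as PR proteins or relatives of them, 8 of them through those lists. This grouping was made after the values were seen, and it holds all 8 members called higher after BP178. The 10 were not tested against the other 65 for these reasons.

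The PR members included PR1a (LOC100191111, Solyc01g106620), a small secreted antimicrobial protein whose relatives are widely used as markers of SA responses in Arabidopsis. Its log2 intensity was 7.43, 6.28 and 6.30 in the NTC of experiment 1, 8.87, 8.74 and 9.33 after JA, and 9.29, 8.68 and 8.65 after Et. The SA arrays gave 6.99, 6.53 and 6.99, within the range of the NTC. PR1a was thus 2.31 higher after JA, 2.21 higher after Et and 0.17 higher after SA. A beta-glucanase (LOC101261650), which cleaves a main glucan of fungal walls, read 10.25, 9.42 and 9.61 in the NTC, 11.54, 11.57 and 11.74 after JA, and 11.66, 11.57 and 11.70 after Et. Its SA arrays, at 9.45, 9.66 and 9.92, overlapped the NTC. Its JA and Et arrays overlapped each other and lay above every NTC and SA array.

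Chitinases cut the chitin of fungal walls. The chitinase fragment Solyc01g097270 was at 9.20, 8.90 and 9.02 in the NTC of experiment 1, at 10.63, 10.65 and 10.62 after JA, at 11.18, 11.05 and 11.03 after Et, and at 9.04, 8.73 and 9.15 after SA. The basic chitinase CHI9, named here after its values were seen, was at 9.10, 8.75 and 8.56 in the NTC, 10.00, 9.86 and 10.48 after JA, and 10.44, 10.19 and 10.50 after Et. After SA it was at 8.45, 7.41 and 8.40, below every NTC array. Both chitinases thus began at high intensities and lay 1.31 to 2.04 above the NTC after JA and Et.

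A cluster of members lay on chromosome 8. ER1 (Solyc08g080630), annotated as a chymotrypsin inhibitor, the osmotin-like Solyc08g080640, Solyc08g080650 and Solyc08g080660 (LOC101264959) carry consecutive locus numbers. In the RefSeq order of assembly SLM_r2.1, LOC101264959 stood next to LOC543878, whose RefSeq synonym is PR5, with 0 genes between them. Osmotins are PR5 proteins with a thaumatin-like fold that permeabilize fungal membranes, and proteinase inhibitors of this kind block the digestive proteases of attackers. Probes of near-identical osmotin-like genes can pick up each other's transcripts, and probe sequences were not used here. The osmotin-like and PR5 members of this cluster therefore cannot be taken as independent measurements.

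ER1 read 3.57, 3.01 and 2.98 in the NTC of experiment 1, 7.40, 7.33 and 8.05 after JA, 6.80, 6.08 and 6.52 after Et, and 3.0, 3.65 and 3.74 after SA. Solyc08g080640 read 7.90, 7.14 and 7.58 in the NTC, 10.89, 10.92 and 11.27 after JA, 10.13, 10.08 and 10.14 after Et, and 8.21, 7.69 and 7.81 after SA. For both of these genes every JA array was above every Et array. LOC101264959 went the other way, with 6.49, 4.90 and 5.01 in the NTC, 8.18, 8.53 and 8.54 after JA, 9.78, 9.88 and 9.64 after Et, and 4.85, 4.61 and 4.39 after SA. Its Et arrays were all above its JA arrays.

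Solyc08g080650 and PR5 (LOC543878) were nearly equal after JA and Et but low after SA. Solyc08g080650 was at 9.47, 8.64 and 8.34 in the NTC, 10.79, 10.79 and 11.32 after JA, 11.11, 10.87 and 11.03 after Et, and 7.61, 7.32 and 8.07 after SA. PR5 was at 4.56, 4.48 and 5.47 in the NTC, 6.70, 7.53 and 8.20 after JA, 7.32, 7.45 and 7.20 after Et, and 3.11, 3.29 and 3.87 after SA. In both, every SA array was below every NTC array, with mean differences of -1.14 and -1.41. The subtilisin-like protease LOC101252733, of a family with PR members, had smaller differences of 1.27 after JA and 1.07 after Et, with -0.31 after SA.

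BP178 and flg15 were then examined. A probe set was called when its fold change (FC) was at least 2, or at most 0.5, and its Benjamini-Hochberg adjusted p in limma, over all 67795 probe sets, was below 0.05. BP178 shares its NTC with the rule, which favours members with a low NTC in experiment 1. The flg15 difference used no array of the thresholds, but its SE and p took their spread from all 21 arrays, those of the rule included. The requirement of an annotation, however, touched both comparisons, since 3 members (Solyc01g097270, Solyc08g080640 and Solyc08g080650) have no symbol and entered through the study's lists of transcripts changed by the peptides. Of the 75 members, 8 (10.7%) were called higher after BP178, against 0.124% of all probe sets, and 0 were called lower, against 0.0133%. After flg15, 8 members (10.7%) were called higher, against 0.218% of all probe sets, and 0 lower, against 0.0384%. In a limma fit of experiment 2 alone, 6 members and 88 of all 67795 probe sets were called higher after flg15. At an unadjusted p below 0.05 in limma, 36 members were higher and 0 lower after BP178, while 13 were higher and 10 lower after flg15 (all probe sets: 4.01%, 3.26%, 5.58% and 5.96%). The FC was at least 2 in 11 members after BP178 and in 9 after flg15 (0.233% and 0.329% of all probe sets), and at most 0.5 in 1 member after flg15 (0.236%). Both peptides called 7 of the members, or 9.33%, against 0.0487% of all probe sets. These shares are partly fixed by the choice, because the 3 members without a symbol were called after both peptides. Among the 72 members with a symbol, 5 (6.94%) were called higher after BP178, 5 (6.94%) after flg15 and 4 (5.56%) after both, against 0.246%, 0.474% and 0.121% of the 23194 probe sets with 1 symbol, a count made after the values were seen.

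**Figure D2:**
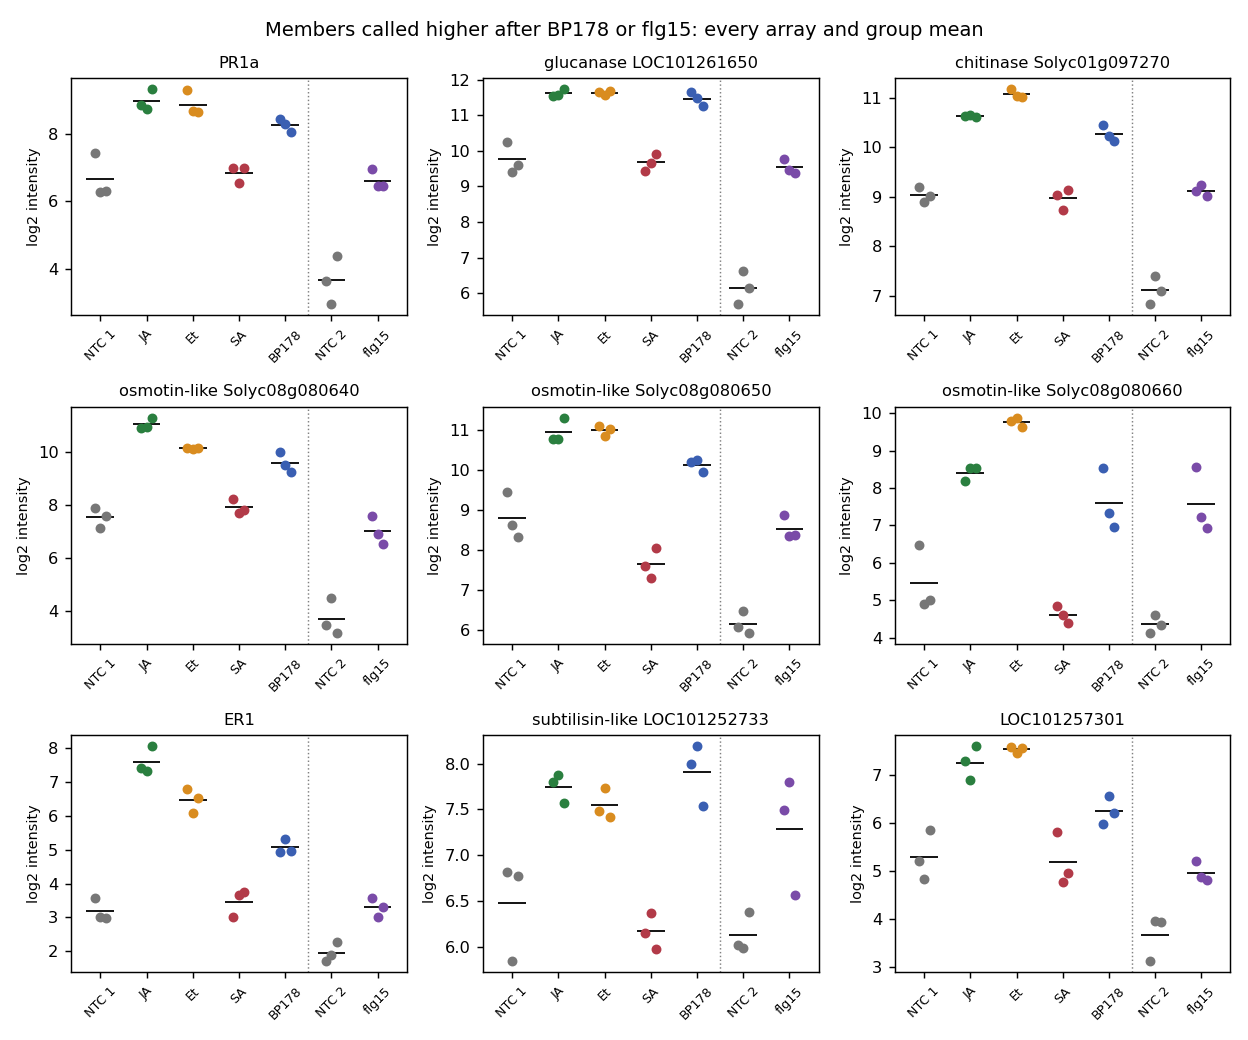
Log2 intensity of the 9 members called higher after BP178 or flg15, on every array (points) with the group mean (bar). The 5 groups left of the dotted line belong to experiment 1 (NTC 1) and the groups to its right to experiment 2 (NTC 2). In 8 of the 9 panels NTC 2 lies below NTC 1, and the subtilisin-like LOC101252733 has overlapping controls.

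The 7 members called after both peptides were PR1a, the beta-glucanase, the chitinase Solyc01g097270, the 3 osmotin-like genes and ER1. PR1a was at 8.46, 8.30 and 8.06 after BP178, a log2 difference of 1.60 ± 0.32 (SE, n = 3 against 3, limma adjusted p = 0.0436). In experiment 2 it was at 3.65, 2.95 and 4.40 in the NTC and at 6.96, 6.44 and 6.45 after flg15, a difference of 2.95 ± 0.32 (limma adjusted p = 3.23e-05). Neither pair of groups overlapped. The flg15 arrays of PR1a nevertheless lay within the range of the NTC arrays of experiment 1.

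The beta-glucanase read 11.65, 11.50 and 11.25 after BP178, 1.71 ± 0.22 above its NTC (SE, limma adjusted p = 0.00079). In experiment 2 it read 5.68, 6.61 and 6.14 in the NTC and 9.78, 9.47 and 9.38 after flg15, 3.40 ± 0.22 higher (limma adjusted p = 4.45e-08). It was the sole member whose response was called different between the peptides, by -1.69 ± 0.30 for BP178 minus flg15 (limma adjusted p = 0.0358), where 0.0546% of all probe sets were called higher after flg15 and 0.0325% higher after BP178. That call was lost when any of 8 of the 12 arrays of the 4 groups was left out.

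The osmotin-like Solyc08g080640 was at 10.00, 9.48 and 9.22 after BP178, at 3.48, 4.50 and 3.19 in the NTC of experiment 2 and at 7.59, 6.92 and 6.52 after flg15. Its responses were 2.02 ± 0.30 and 3.29 ± 0.30 (SE, limma adjusted p = 0.00298 and 3.56e-06). LOC101264959 was at 8.53, 7.32 and 6.96 after BP178, 4.13, 4.60 and 4.33 in the second NTC, and 8.58, 7.22 and 6.94 after flg15, with responses of 2.14 ± 0.42 and 3.23 ± 0.42 (limma adjusted p = 0.0356 and 0.000304). Solyc08g080650, at 10.21, 10.26 and 9.96 after BP178, 6.09, 6.48 and 5.94 in the second NTC and 8.89, 8.35 and 8.40 after flg15, rose by 1.33 ± 0.25 and 2.38 ± 0.25 (limma adjusted p = 0.0266 and 2.07e-05). All 3 osmotin-like genes thus had treated arrays above every control array in both experiments.

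ER1 was at 4.94, 5.30 and 4.95 after BP178, 1.71, 1.89 and 2.29 in the NTC of experiment 2 and 3.57, 3.01 and 3.31 after flg15. It rose by 1.88 ± 0.25 after BP178 and by 1.33 ± 0.25 after flg15 (SE, limma adjusted p = 0.00116 and 0.0138), and the difference of 0.54 ± 0.35 between these responses was not called. The chitinase Solyc01g097270 was at 10.45, 10.23 and 10.12 after BP178, 6.82, 7.39 and 7.10 in the second NTC and 9.12, 9.23 and 9.01 after flg15. It rose by 1.23 ± 0.15 and by 2.01 ± 0.15 (limma adjusted p = 0.000426 and 2.56e-07). With any 1 of the 6 arrays left out, the BP178 call held for 4 members, namely ER1, this chitinase, Solyc08g080640 and the beta-glucanase, while it was kept in 2 of 6 omissions for LOC101264959 and in 1 of 6 for PR1a and Solyc08g080650. The flg15 call held in the same way for 6, and among the 7 shared members ER1 was the exception, keeping it in 2 of 6.

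The remaining called members passed after a single peptide. The subtilisin-like LOC101252733 was at 6.81, 5.84 and 6.77 in the NTC of experiment 1 and at 8.00, 8.19 and 7.54 after BP178, a rise of 1.43 ± 0.27 (SE, limma adjusted p = 0.0305) that was kept in 3 of 6 omissions. In experiment 2 it was at 6.02, 5.99 and 6.38 in the NTC and 7.49, 7.79 and 6.57 after flg15, 1.16 ± 0.27 higher with a limma adjusted p of 0.0708. LOC101257301, a locus without a description, was at 3.12, 3.95 and 3.94 in the second NTC and at 5.22, 4.88 and 4.81 after flg15, 1.30 ± 0.29 higher (limma adjusted p = 0.0489, kept in 1 of 6 omissions). Its BP178 difference was 0.95 ± 0.29 with an adjusted p of 0.312, and neither gene differed between the peptides by the test of the difference (limma adjusted p = 0.875 and 0.844).

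CHI9 and PR5 were the PR members called after neither peptide. CHI9 was at 9.09, 9.63 and 9.50 after BP178, which overlapped its NTC of experiment 1, and its difference was 0.60 ± 0.23 (SE, limma adjusted p = 0.517). It was at 6.06, 6.22 and 6.09 in the second NTC and 6.94, 7.14 and 7.07 after flg15, 0.92 ± 0.23 higher without overlap but with an adjusted p of 0.0879. PR5 (LOC543878) had differences of 0.98 ± 0.36 after BP178 and 0.62 ± 0.36 after flg15 (limma adjusted p = 0.495 and 0.547).

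The controls of the experiments themselves were compared as a description. Every NTC array of experiment 1 was above every NTC array of experiment 2 in 17 of the 75 members (22.7%), and below in 20 (26.7%), against 9.74% and 10.3% of all probe sets. The 17 include 9 of the 10 PR members. The exception was LOC101252733, with a mean 0.35 higher in experiment 1 and overlapping controls. Of the 10, 8 were annotated through the peptide lists. The part of that choice in the difference between the controls was not tested. The mean of the NTC of experiment 1 was 3.81 above that of experiment 2 for Solyc08g080640, 3.62 for the beta-glucanase, 3.0 for PR1a, 2.68 for CHI9 and 2.68 for PR5. It was 2.19 below for LOC101262261, 2.11 below for LOC101247048 and 1.91 below for PDH. In 10 members it was 1 or more higher and in 11 it was 1 or more lower, and in 4 members the second NTC mean was at or above the JA mean of experiment 1. Because BP178 and flg15 were run in different experiments, a difference between the peptides and one between the experiments cannot be told apart.

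**Figure D3:**
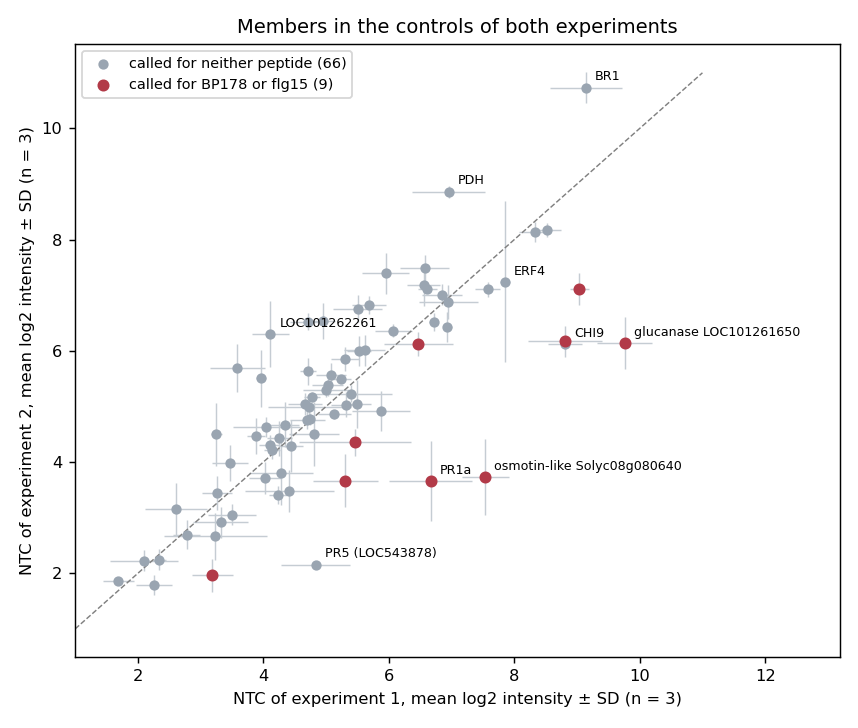
Mean log2 intensity of each of the 75 members in the NTC of experiment 1 (x axis) and of experiment 2 (y axis), with bars of 1 SD over 3 arrays and a dashed line of equality. Members called after a peptide are in red and sit below the line, led by Solyc08g080640, which is 3.81 lower in experiment 2.

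Across the whole set, the BP178 difference had a median of 0.49 and ran from -0.34 to 2.14, with a median of -0.01 over all probe sets. It was above 0 in 65 of the 75 members (86.7%, against 48.5% of all probe sets), and every BP178 array was above every NTC array in 29 members (38.7%, against 8.02%) and below in 0 (against 6.8%). The 66 members called after neither peptide still had a median BP178 difference of 0.41. These values share their NTC arrays with the rule, which favours members with a low NTC in experiment 1. The flg15 difference used no array of the thresholds. It had a median of -0.03 and ran from -1.02 to 3.40, with a median of 0.02 over all probe sets. It was above 0 in 34 members (45.3%, against 53.7%). Every flg15 array was above every NTC array in 13 members (17.3%, against 7.58%) and below in 8 (10.7%, against 6.41%). Among the 72 members with a symbol the flg15 counts were 10 (13.9%, against 5.1% of probe sets with 1 symbol) and 8 (11.1%, against 12.5%), and the BP178 count was 26 (36.1%, against 13.8%).

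**Figure D4:**
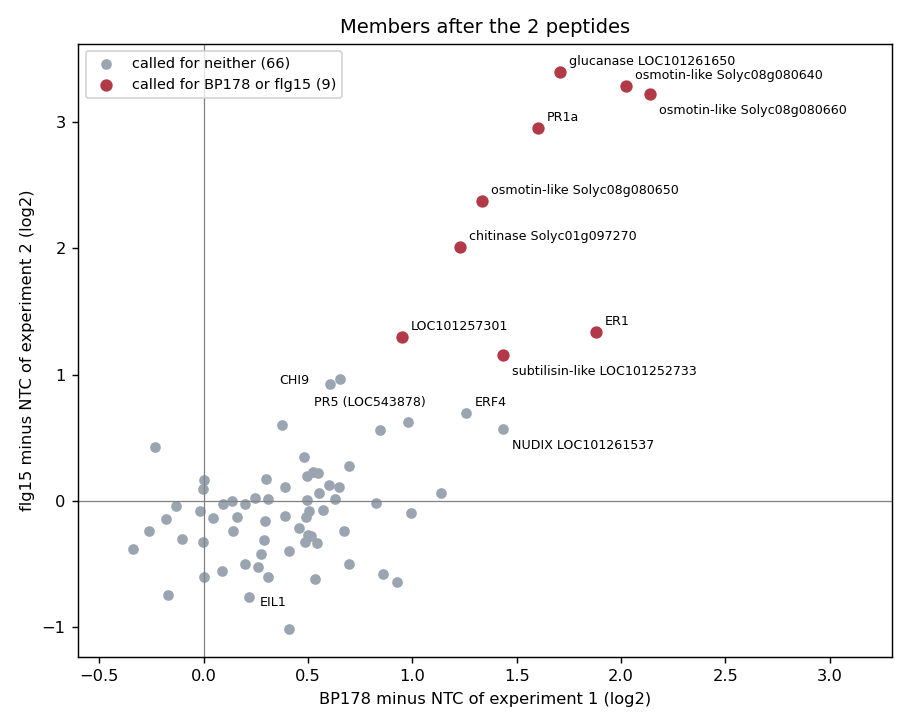
BP178 response (x axis, against the NTC of experiment 1) and flg15 response (y axis, against the NTC of experiment 2) of the 75 members, in log2. The 9 called members (red) reach 2.14 on the x axis and 3.40 on the y axis, whereas the 66 others have medians of 0.41 and -0.09.

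For comparison, 137 annotated probe sets were raised by SA as well as by JA and Et under the same thresholds. Of these, 18 (13.1%) were called higher after BP178, 13 (9.49%) after flg15 and 5 (3.65%) after both. Their median differences were 0.61 after BP178 and 0.12 after flg15. Every BP178 array was above every NTC array in 81 of them (59.1%), and every flg15 array was below every NTC array in 2 (1.46%). The sets were not tested against each other, and descriptions from the peptide lists could admit members to both.

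The regulators ERF4 and EIL1 belong to Et signaling. ERF4 (Sl-ERF.B3), an ERF transcription factor of Et signaling, was at 7.93, 7.78 and 7.84 in the NTC of experiment 1, 9.01, 9.01 and 9.43 after JA, 10.68, 10.80 and 10.64 after Et and 8.30, 7.87 and 8.44 after SA. EIL1, an EIN3-like factor that acts upstream of the ERFs, was at 5.15, 5.20 and 5.58 in the NTC, 6.82, 6.70 and 6.89 after JA, 7.06, 6.89 and 6.62 after Et and 5.16, 5.33 and 5.30 after SA. The Et arrays of ERF4 were all above its JA arrays, and those of EIL1 overlapped.

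ERF4 was at 8.75, 9.51 and 9.06 after BP178, above every NTC array, with a difference of 1.26 ± 0.44 (SE) that was not called (limma adjusted p = 0.434). The spread of the shared fit included the second NTC, where ERF4 was at 5.58, 8.14 and 8.01. A fit of experiment 1 alone gave a limma adjusted p of 0.0111, and no other alternative called ERF4 after BP178. With 1 array of BP178 or its NTC left out, the limma adjusted p ran from 0.475 to 0.845. EIL1 was at 5.34, 5.93 and 5.31 after BP178, which overlapped the NTC. It was at 4.90, 5.29 and 4.92 in the second NTC and 3.69, 4.99 and 4.11 after flg15, a difference of -0.77 ± 0.24 (limma adjusted p = 0.197). With 1 array of flg15 or its NTC left out, the limma adjusted p of EIL1 ran from 0.00823 to 0.617. The lowest value came without flg15 replicate 2, where the difference was -1.13.

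The kinase MKK4 and the transcription factor WRKYIIe-1 (SlWRKY37) were both named after their values were seen. Their JA means were above their Et means, by 0.72 and 1.54. MKK4, a MAP kinase kinase, read 7.02, 6.88 and 6.90 in the NTC of experiment 1, 9.05, 9.02 and 9.09 after JA and 8.56, 8.36 and 8.08 after Et, and 7.26, 7.08 and 7.41 after SA. WRKYIIe-1 read 4.44, 4.26 and 5.50 in the NTC, 7.28, 7.84 and 7.55 after JA, 6.14, 5.88 and 6.02 after Et and 4.72, 5.15 and 5.38 after SA. Every JA array was above every Et array for both. Their peptide differences, 0.09 and 0.50 after BP178 and -0.03 and 0.19 after flg15, were not called.

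The largest JA difference belonged to MIOX, which encodes myo-inositol oxygenase, an enzyme that turns myo-inositol into glucuronic acid, a precursor of wall sugars. MIOX was near the bottom of the scale in the NTC of experiment 1, at 1.5, 1.60 and 1.96, and stood at 8.82, 8.19 and 9.17 after JA and 8.07, 6.82 and 7.34 after Et. The SA arrays were at 1.60, 1.78 and 2.84, so that MIOX separated JA and Et from all other treatments by several units. After BP178 it was at 2.27, 2.45 and 1.82, which overlapped the NTC (difference 0.49 ± 0.31, SE, limma adjusted p = 0.827). In experiment 2 the NTC arrays were at 1.92, 1.78 and 1.88 and the flg15 arrays at 1.86, 1.84 and 1.88.

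PDH was higher after Et than after JA, by less than 1. It was at 6.30, 7.42 and 7.14 in the NTC of experiment 1, 10.56, 10.24 and 9.79 after JA, 11.45, 11.04 and 10.75 after Et and 6.73, 6.58 and 6.16 after SA. It was at 8.75, 8.89 and 8.96 in the second NTC, between the first NTC and JA, and its differences of -0.34 after BP178 and -0.38 after flg15 were not called.

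**Figure D5:**
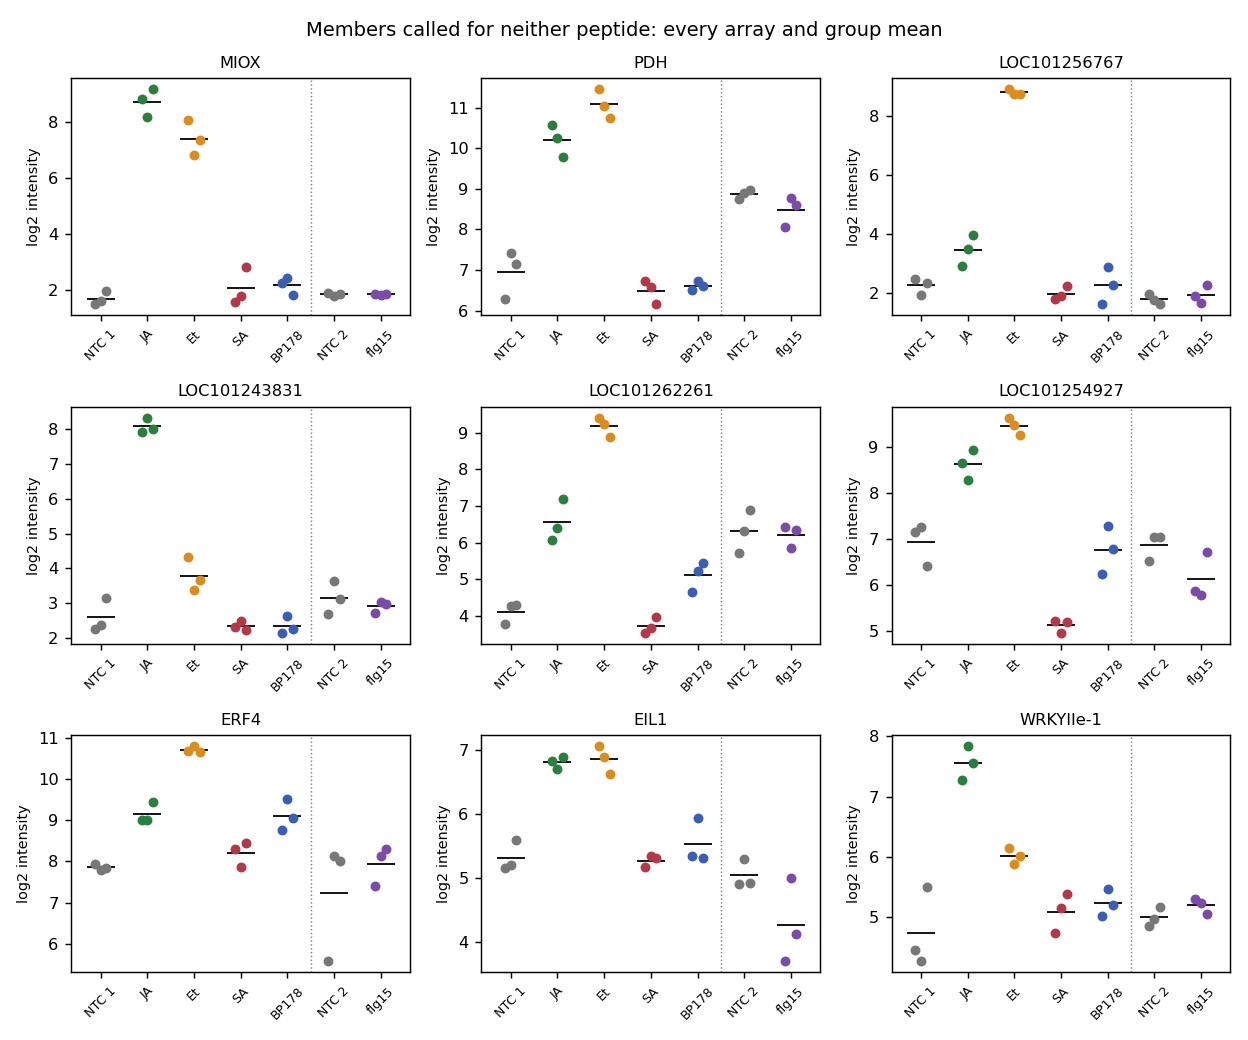
Log2 intensity of 9 members called after neither peptide, on every array (points) with the group mean (bar), in the same order of groups as for the called members. MIOX, LOC101256767 and LOC101243831 stay near the NTC after BP178 and flg15, and ERF4 has 1 low array in the second NTC, at 5.58.

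Among members that leaned to JA, the NUDIX hydrolase LOC101261537 (Solyc08g007240), of a family that cleaves nucleoside diphosphate derivatives, was at 3.23, 2.42 and 4.05 in the NTC of experiment 1, 8.25, 8.01 and 8.59 after JA, 6.33, 5.42 and 6.31 after Et and 2.74, 3.20 and 3.15 after SA. It was at 4.60, 5.03 and 4.37 after BP178, above every NTC array, but its difference of 1.43 ± 0.34 (SE) was not called (limma adjusted p = 0.121). LOC101243831, which has no description, was at 2.26, 2.39 and 3.17 in the NTC, 7.92, 8.33 and 8.02 after JA, 4.32, 3.39 and 3.67 after Et and 2.32, 2.48 and 2.25 after SA. Its JA difference of 5.48 stood against an Et difference of 1.19. The other members with the largest lean to JA were LOC101264227 (3.59 after JA, 1.29 after Et), LOC101264199 (2.77 and 1.02) and LOC101244162 (3.51 and 1.87).

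The strongest lean to Et was that of LOC101256767, also without a description. It was at 2.48, 1.94 and 2.36 in the NTC of experiment 1, 2.90, 3.50 and 3.97 after JA, 8.89, 8.73 and 8.74 after Et and 1.79, 1.91 and 2.24 after SA. Its Et arrays stood far above its JA arrays, and its BP178 and flg15 differences were 0.00 and 0.17. LOC101262261 followed, at 3.77, 4.26 and 4.30 in the NTC, 6.07, 6.40 and 7.18 after JA and 9.41, 9.23 and 8.89 after Et, with 3.54, 3.66 and 3.96 after SA. It was at 5.71, 6.30 and 6.90 in the second NTC, so that its JA arrays of experiment 1 overlapped the untreated plants of experiment 2. LOC101250097 (1.44 after JA, 3.79 after Et), LOC101265932 (1.20 and 3.52) and LOC778264 (1.02 and 3.36) had the next largest leans among the 12 members on the Et side.

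The SA and control values of the members that leaned to Et and of those that leaned to JA were set side by side, without a test. In the 12 with an Et mean 1 or more above JA, the median SA difference was -0.40 and 9 had an SA mean below the NTC. In the 10 with a JA mean 1 or more above Et, the median was 0.17 and 4 had an SA mean below the NTC. Every NTC array of experiment 1 was below every NTC array of experiment 2 in 6 of the 12 and in 0 of the 10, and above in 1 of the 12 and 2 of the 10, where 10.3% and 9.74% of all probe sets lay below and above. BP178 and flg15 each called 1 member of either side, LOC101264959 on the Et side and ER1 on the JA side.

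Of the other members with differences of 2 or more after both hormones, the largest were LOC101261260 (3.47 after JA, 3.10 after Et), LOC101267006 (2.85 and 3.67) and LOC101252712 (2.19 and 2.70). LOC101261260 was at 5.19, 4.28 and 3.78 in the NTC of experiment 1, 7.69, 7.44 and 8.55 after JA and 7.89, 7.40 and 7.25 after Et. It was at 3.09, 3.82 and 3.52 in the second NTC and 3.0, 2.72 and 2.96 after flg15, below every NTC array, with a difference of -0.58 that was not called. None of these 3 has a description.

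Low values after SA were seen in part of the set. The leaf mesophyll markers had a median difference of -0.63 after SA over their 4 probe sets, of which 0 were called, none reaching the FC limit. The differences were -0.60 for CAB4, -0.92 and -0.67 for LOC101267774 and -0.33 for LOC101264286 (limma adjusted p = 0.000855, 9.72e-05, 0.063 and 0.513). The part of these markers in the members' values was not tested. The SA difference was -0.5 or lower in 15 members and between -0.5 and 0.5 in 60. Every SA array was below every NTC array in 14 members (18.7%, against 12.1% of all probe sets), and above in 5 (6.67%, against 11.3%), a balance that the limit on SA in the rule shifts downward. The lowest was LOC101254927, at 7.16, 7.28 and 6.41 in the NTC of experiment 1, 8.66, 8.28 and 8.94 after JA, 9.65, 9.48 and 9.26 after Et and 5.23, 4.97 and 5.19 after SA. LOC101262125 was at 6.03, 5.54 and 6.28 in the NTC, 7.72, 7.79 and 8.00 after JA, 9.50, 9.75 and 9.66 after Et and 4.73, 4.22 and 3.68 after SA. ZIP, with 8.25, 8.70 and 8.59 in the NTC and 7.07, 7.32 and 7.51 after SA, had an SA difference of -1.22. In these 3 members the SA arrays lay below every NTC array and the JA and Et arrays above.

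One member came close to a lower call after flg15. LOC101260191 (Solyc02g089990), annotated as a TMV response-related protein and named after its values were seen, was at 5.67, 5.81 and 6.10 in the second NTC and 4.72, 4.71 and 5.10 after flg15, a difference of -1.02 ± 0.23 (SE, limma adjusted p = 0.0522). It was at 5.20, 5.55 and 5.15 in the NTC of experiment 1 and 5.96, 5.46 and 5.70 after BP178, which overlapped. The response after BP178 minus that after flg15 was 1.43 ± 0.32 (limma adjusted p = 0.117).

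In RefSeq order, 4 pairs of members were neighbours or near neighbours. Besides ER1 with LOC101264959 (2 genes between) and LOC101264959 with PR5, these were LOC101247658 and LOC101248137 on chromosome 1, with 0 genes between, and LOC101244273 and LOC101243696 on chromosome 4, with 1 gene between. The chromosome 1 pair had JA differences of 1.60 and 2.17 and Et differences of 1.48 and 1.94. The chromosome 4 pair had JA differences of 2.54 and 1.58, Et differences of 2.09 and 1.98, and SA differences of -0.61 and -0.49.

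The listed genes of JA synthesis and response were not in the set. Of a list of 44 symbols, 20 were matched to 22 probe sets, and 0 of them were members. After JA, 11 rose and 0 fell (all probe sets: 1.64% and 1.7%), while after Et 1 rose and 5 fell (1.18% and 0.667%). The lipoxygenase loxD and the allene oxide synthase aos, both of JA synthesis, were 2.49 and 3.74 higher after JA on the log2 scale, whereas after Et their levels fell by 1.99 and 1.25. The arginase ARG2, a JA-responsive enzyme, was 4.30 higher after JA, and with Et it fell by 1.76. JA2, a NAC transcription factor, was the one that rose after Et, by 1.15. After BP178 0 were called (all probe sets 0.124% and 0.0133%), and after flg15 1 rose, the polyphenol oxidase LOC101259064, by 2.43 (limma adjusted p = 0.0234).

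Of 50 symbols of Et synthesis and signaling, 27 were matched to 31 probe sets, of which 2 were members, ERF4 and EIL1. After JA 7 rose and after Et 7 rose, with 0 lower calls in either, and 5 rose and 0 fell after SA (all probe sets: 2.26% and 2.12%). The F-box gene EBF1, which removes EIN3-like factors, rose by 2.77 after Et. ERF1 rose by 2.25 after JA and 3.93 after Et on one of its probe sets, and the receptor ETR4 rose by 1.76 after JA, 2.02 after Et and 2.00 after SA. After BP178 and flg15, 0 of the 31 were called by limma. The median over the list was 0.13 after BP178 and -0.15 after flg15.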

How the data were processed

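Leaf RNA of 21 samples, 3 per group, was hybridized to the Affymetrix tomato whole-transcript array (Tomato Gene 1.0 ST). The authors background-corrected, normalized and summarized the arrays by RMA in Expression Console (version not given in the sources used here) and deposited log2 values for 67795 probe sets. Whether both experiments were normalized together is not stated. RMA compresses differences of dim probe sets, so that low members may change by more than their values show.

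The values were used as deposited. One mean per group was fitted over the 21 arrays with limma 3.58.1 in R 4.3.3, with eBayes and Benjamini-Hochberg adjustment over all probe sets, without a filter and with 1 contrast per treatment against the NTC of its own experiment, plus the difference of the BP178 and flg15 responses, for which an adjusted p below 0.05 alone made the call. The script was tested on simulated data. Probe sets were named through the platform annotation (23194 with 1 symbol, 170 with several, 44431 with none), the study's descriptions and RefSeq.

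Named members were the 12 with the largest smaller difference of JA and Et, the 5 with the largest lean to either hormone, those called after a peptide, those on the pathway lists, the 5 lowest after SA and those at the edges of the rule. The members, lists and tests were chosen with earlier results of these data known. Alternatives covered normalization, dim probe sets, variance model, weights, replicate block, thresholds, controls and each array left out. Promoter motifs were not analysed here.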

Additional observations from a re-analysis of the deposited data

Results flagged for a closer look

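The response of the beta-glucanase LOC101261650 differed between the peptides by -1.69 (log2, BP178 minus flg15), the sole difference among the members past the threshold in limma. It rose after both peptides, in 3 of 3 arrays each. Its NTC arrays were at 10.25, 9.42 and 9.61 in experiment 1 and at 5.68, 6.61 and 6.14 in experiment 2. The BP178 arrays, at 11.65, 11.50 and 11.25, were close to the JA and Et arrays of the same experiment, and the flg15 arrays, at 9.78, 9.47 and 9.38, were near the NTC of experiment 1. Peptide and experiment cannot be told apart here.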

How the results depend on the processing

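The number of members was 75, and 33 with JA and Et differences of at least 1.5. With 1 array left out it was between 66 and 83. Members called higher after BP178 were 8, against 4 at an adjusted p below 0.01 and 4 in a fit of the 2 groups alone. They were 9 with the NTC of both experiments (LOC101261537 gained). With 1 array left out they were 4 to 8 (4 without BP178 replicate 1, BP178 replicate 2 or NTC replicate 2). Members called higher after flg15 were 8, against 6 in a fit of experiment 2 alone (ER1 and LOC101257301 lost), 1 with the NTC of both experiments (LOC101264959) and 6 to 8 with 1 array left out. Members called lower after flg15 were 0, against 1 without the dimmest 25% of probe sets, 1 with a trended robust prior and 1 with the replicate block (LOC101260191 in each), and 0 to 1 with 1 array left out (EIL1 without flg15 replicate 2). The response was called higher after BP178 than after flg15 in 0 members, against 1 with array weights (LOC101243939) and 0 to 1 with 1 array left out. It was called higher after flg15 in 1 member, the beta-glucanase, against 0 at an adjusted p below 0.01, 0 with median centring, 0 in a fit of the 4 groups alone, 0 with array weights, 0 with the replicate block, and 0 to 1 with 1 array left out. The cause was not tested. Among members with a gene symbol alone, a setting chosen after seeing the data, 5 were called higher after BP178 and 5 after flg15. Over all probe sets, calls higher after BP178 were 84, against 47 to 80 with 1 array left out. In their deviations from group means, same-numbered treated and NTC arrays correlated by -0.05 to 0.13 for BP178 and -0.02 to 0.06 for flg15. Arrays with different numbers correlated by -0.17 to 0.08 and by -0.08 to 0.08. With 3 arrays per group, these values cannot decide whether the replicate numbers pair the arrays. With the replicate block, 6 members were called higher after BP178 and 7 after flg15. Of the named members' peptide values under the alternatives, 54 lost a call, 7 gained one and 0 called values changed sign. Values that were not called changed sign 59 times, 17 of them with the NTC of both experiments, for example PDH after flg15 from -0.38 to 0.57, PR5 (LOC543878) after flg15 from 0.62 to -0.72, and LOC101262261 after BP178 from 1.00 to -0.10. The planned search for promoter motifs was not run. Arrays number 3 per group, which limits the precision.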
